A study of Mus musculus with 16 samples.

Results

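The libraries a.del and 4k.b.c came from edited clones of the mouse embryonic stem cell line F121-9, and on chr1 and chr12 nearly all of their nascent RNA came from a single parental copy. They were compared with both F121-9 libraries, so the comparison used 4 of the 16 libraries of the series. Genes were sorted by chromosome into chr1 and chr12, where 1 copy was nearly absent, chr8 and chr7, where the copies were unequal in at least 1 clone, and the 15 other autosomes. Of 23825 autosomal symbols, 1402 lie on chr1, 853 on chr12, 1193 on chr8, 2232 on chr7 and 18145 on the others. Genes were tested when their mean total over the 16 libraries was at least 0.2 RPM (reads of both copies per 1000000 autosomal reads assigned to a copy), a filter passed by 924, 574, 813, 1202 and 11373 of them.

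F121-9 is a hybrid of 129 and castaneus (cast) mice, so each autosome has a 129 and a cast copy that differ at known sequence variants. Nascent transcripts were measured by Bru-seq: cells took up 2 mM bromouridine for 30 min, and libraries that keep the strand were made from 300 ng of labelled RNA captured with an antibody. Cells of this hybrid were grown with 2i and LIF. The labels name the clones a.del and 4k.b.c without giving the position of the edit or the edited copy. Each is 1 clone with 1 library, and the labels do not say whether the F121-9 libraries were separate cultures. The p-values rest on the spread within the 4 labels that have 2 libraries, to which a.del and 4k.b.c add nothing.

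In a cell with a chromosome from each parent, a gene is usually transcribed from both copies and its total is their sum. Imprinted genes are the exception: their copies carry different DNA methylation from sperm and egg, and normally only 1 of them is active. Where a parental copy is missing, the total depends on how active the remaining copies are.

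Reads assigned to a copy came to 17.7 M in a.del, 9.66 M in 4k.b.c, and 21.4 M and 13.6 M in F121-9 replicates 1 and 2, within 8.60 M to 31.3 M over all libraries. Both clones belong to a second run of sample numbers and F121-9 to a first, and ab.del and c.del have 1 library in each run. The run could thus be fitted as a covariate, resting on those 4 libraries, and the clones could also be set against the 6 other libraries of the second run. Those 6 carry different edits and were fitted as 1 group, so the spread in that fit includes differences between edited lines. Summed over 7 markers of pluripotent stem cells, the level was 3995 RPM in a.del and 3779 RPM in 4k.b.c against 4140 and 3667 RPM in F121-9. Markers of other cell types were low. Primitive endoderm summed to 23.3 and 42.1 RPM against 28.6 and 20.5 RPM, with 4k.b.c above the 12.2 to 33.8 RPM of the 12 libraries outside the comparison. Neural cells summed to 23.4 and 4.97 RPM against 3.50 and 1.25 RPM, with 1.62 to 23.9 RPM in those 12, and trophoblast, mesoderm and fibroblasts each to at most 3.78 RPM, with Mesp1 at 0 reads in all 4 libraries. In bulk samples, fewer cells of a type and less RNA per cell cannot be told apart.

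On chr1 the reads came from the 129 copy and on chr12 from the cast copy, in both clones. The 129 share of chr1 was 99.8% in a.del (95% Wilson interval 99.7 to 99.8) and 99.7% in 4k.b.c (99.7 to 99.7), against 53.1% and 52.9% in F121-9 replicates 1 and 2. On chr12 it was 0.440% in a.del (0.424 to 0.456) and 0.457% in 4k.b.c (0.435 to 0.480), against 52.0% and 52.2%. The 14 other libraries lay between 52.7% and 53.7% on chr1 and between 50.5% and 52.2% on chr12, so neither clone came near any of them. The imbalance ran along both chromosomes: in windows of 10 Mb the cast share of chr1 was at most 1.84% in a.del and 1.89% in 4k.b.c over 20 windows, and the 129 share of chr12 at most 1.20% and 1.49% over 12 windows. Intervals and floors cover counting error only.

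Chr8 was unequal in both clones and chr7 in 4k.b.c. The 129 share of chr8 was 35.1% in a.del (34.995 to 35.173) and 35.7% in 4k.b.c (35.6 to 35.8), against 51.7% and 52.7% in F121-9 and 47.5% to 53.1% in the 14 other libraries. On chr7 it was 36.7% in 4k.b.c (36.6 to 36.8) but 52.7% in a.del, inside the 52.3% to 53.6% of the 14 other libraries. Windows of chr8 ran from 30.8% to 38.4% in a.del and from 32.7% to 40.7% in 4k.b.c, and those of chr7 from 31.8% to 39.8% in 4k.b.c. On the 15 other autosomes the share lay between 51.6% and 53.8% in a.del and between 51.1% and 55.1% in 4k.b.c. These shares chose the chromosomes and are given with no test.

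**Figure D1:**
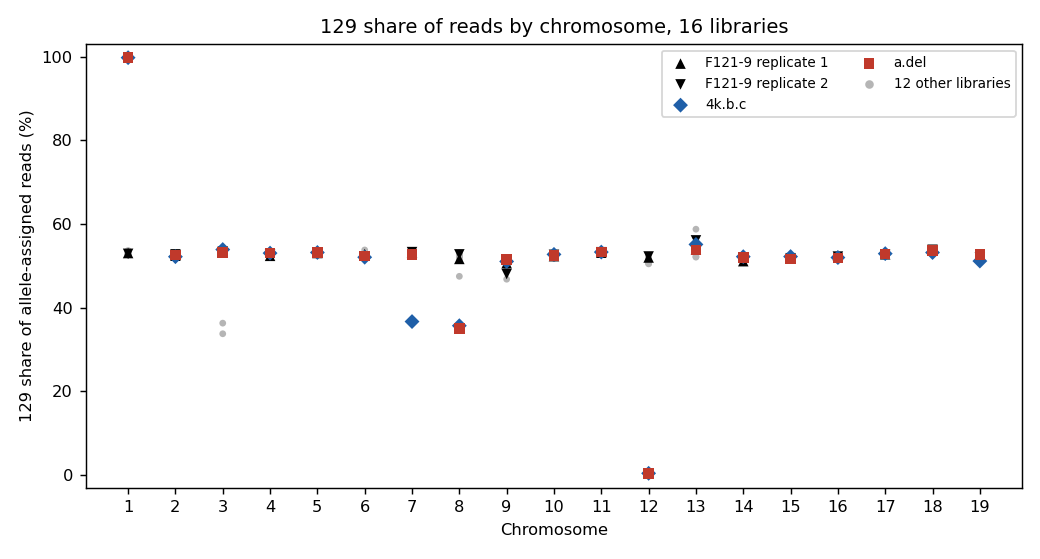
The 129 share of allele-assigned reads in percent (y axis) for each autosome (x axis), 1 point per library. Both clones stand at 99.8% and 99.7% on chr1, at 0.440% and 0.457% on chr12 and at 35.1% and 35.7% on chr8, while 4k.b.c alone is low on chr7, at 36.7%.

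The retained copy of chr1 and chr12 stood at nearly 2 times its F121-9 level. The median 129 gene of chr1 was 1.95-fold the F121-9 level in a.del and 1.96-fold in 4k.b.c, over 855 genes and on the log2(RPM + 0.1) scale on which all differences are given. The median cast gene of chr12 was 1.93-fold and 1.90-fold, over 530 genes. Relative to the same copy of the 15 other autosomes these became 1.76-fold and 1.85-fold for chr1 and 1.76-fold and 1.81-fold for chr12. In the limma fit of the 129 values, where 6.53% of all genes passed an adjusted p of 0.05 (2.31% higher and 4.22% lower), 228 of 855 chr1 genes were called higher and 0 lower. In that of the cast values, where 11.4% passed (4.83% higher and 6.58% lower), 174 of 530 chr12 genes were called higher and 15 lower. The shares chose the chromosomes, so nothing is read from these counts.

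Totals of both copies on chr1 and chr12 lay close to F121-9. The median total differed from F121-9 by 0.00 in a.del and 0.05 in 4k.b.c for chr1 (log2), and by -0.09 and -0.14 for chr12. The median over all tested genes was itself 0.14 in each clone and depends on the scaling: for the mean of both clones it was 0.13 as computed here, -0.13 after centring on the other autosomes and -0.08 in edgeR. Each chromosome was therefore set against the 15 other autosomes of its own library. So measured, chr1 stood at -0.11 in a.del and -0.03 in 4k.b.c, inside the -0.18 to 0.00 of the 12 libraries outside the comparison. Chr12 stood at -0.21 in each clone (0.867-fold and 0.862-fold), below the -0.14 to 0.04 of those 12. Genes of 1 chromosome are not replicates, and no test was made of these medians.

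On chr12, 60 of 574 tested rows (10.5%) were lower in both clones than in all 14 other libraries, against 1.93% of all tested genes, and 15 (2.61%) were higher, against 4.85%. Of the 60, 18 lie in the single stretch from Dlk1 to Dio3, where rows overlap. Outside it 42 of 538 rows of chr12 (7.81%) were lower. On chr1 25 of 924 genes (2.71%) were lower and 53 (5.74%) higher.

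Chr8 totals stood above those of other autosomes in both clones, and chr7 totals in 4k.b.c. The median chr8 gene was 0.74 above F121-9 in a.del and 0.64 in 4k.b.c, or 1.54-fold and 1.48-fold relative to the other autosomes. That relative value was 0.63 and 0.56 on the log2 scale, against -0.05 to 0.08 in the 12 other libraries. By copy, the chr8 median was 1.15 and 1.07 for cast but 0.23 and 0.09 for 129. On chr7 of 4k.b.c the median was 0.71 for the total, 1.14 for cast and 0.19 for 129, and the total was 1.55-fold relative to the other autosomes. Chr7 of a.del stood at 0.26, 0.29 and 0.28, and its relative value of 0.14 lay within the -0.07 to 0.20 of the 12 others. On chr8 244 of 813 genes (30.0%) and on chr7 97 of 1202 (8.07%) were higher in both clones than in all 14 other libraries, against the 4.85% of all tested genes. Within the second run of sample numbers the chr8 median was 0.59 in a.del and 0.48 in 4k.b.c, that of chr7 0.08 and 0.52, and that of the other autosomes 0.03 and -0.04.

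**Figure D2:**
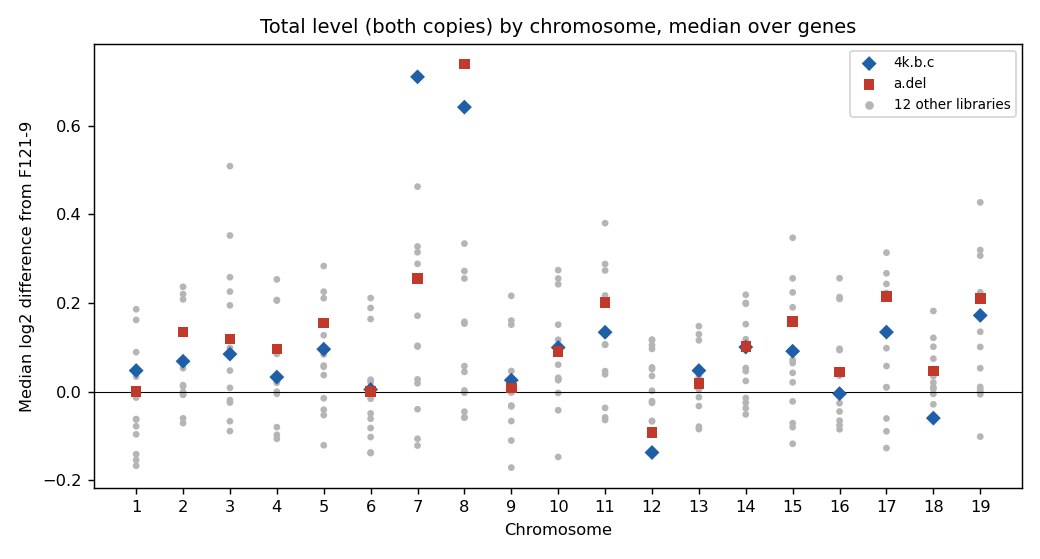
Median over genes of the log2 difference in total level from F121-9 (y axis) for each autosome (x axis), 1 point per library. The clones stand at 0.74 and 0.64 on chr8, 4k.b.c at 0.71 on chr7, and both below the other libraries on chr12.

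**Figure D3:**
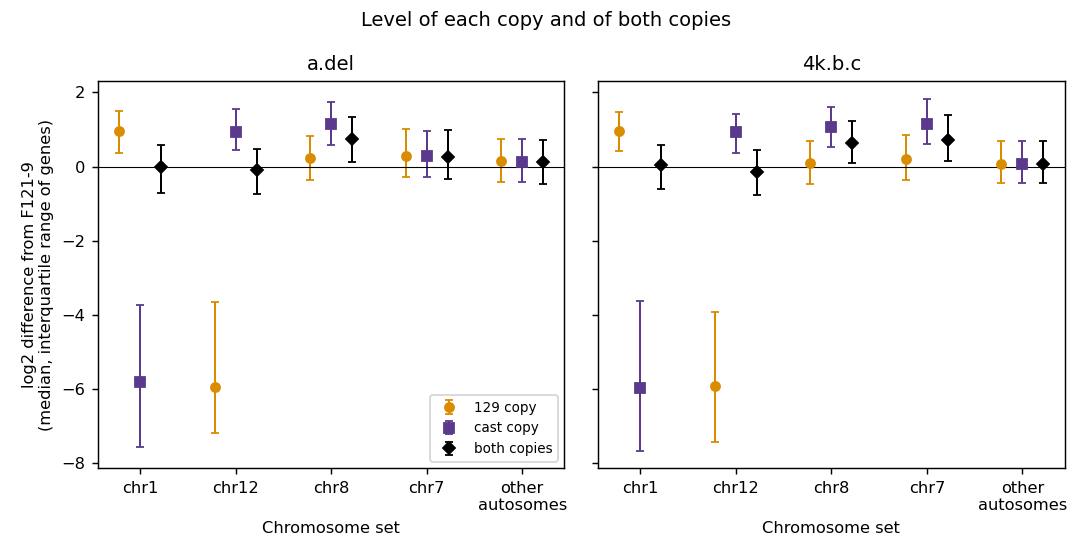
Log2 difference from F121-9 of the 129 copy, the cast copy and both together in each clone, as the median and the interquartile range of genes, by chromosome set. On chr1 the 129 copy stands at 0.96 and 0.97 and the cast copy at -5.82 and -5.96, with the total at 0.00 and 0.05.

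Totals of chr1 and chr12 genes were mostly lower where the retained copy had given a small share of the F121-9 reads. Genes with at least 20 reads in each F121-9 library were grouped by that share in replicate 1, and their difference was taken from replicate 2, so that both axes share no library. For 105 genes whose retained copy gave under 35% of the reads, the median total was -1.31 in a.del and -1.06 in 4k.b.c, and 84.8% and 75.2% of them were lower. Between 35% and 65%, the medians over 886 genes were 0.02 and -0.05. Above 65%, the medians over 162 genes were -0.04 and 0.15. Genes of the other autosomes, grouped by their 129 share, had medians of -0.17 and -0.12 in the low group, 0.11 and 0.00 in the middle and -0.16 and -0.02 in the high group. With the F121-9 replicates exchanged, the low group of chr1 and chr12 stood at -0.69 in the mean of both clones, against -1.19, and the high group at 0.33 against 0.06. These are descriptions, with no test over genes.

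**Figure D4:**
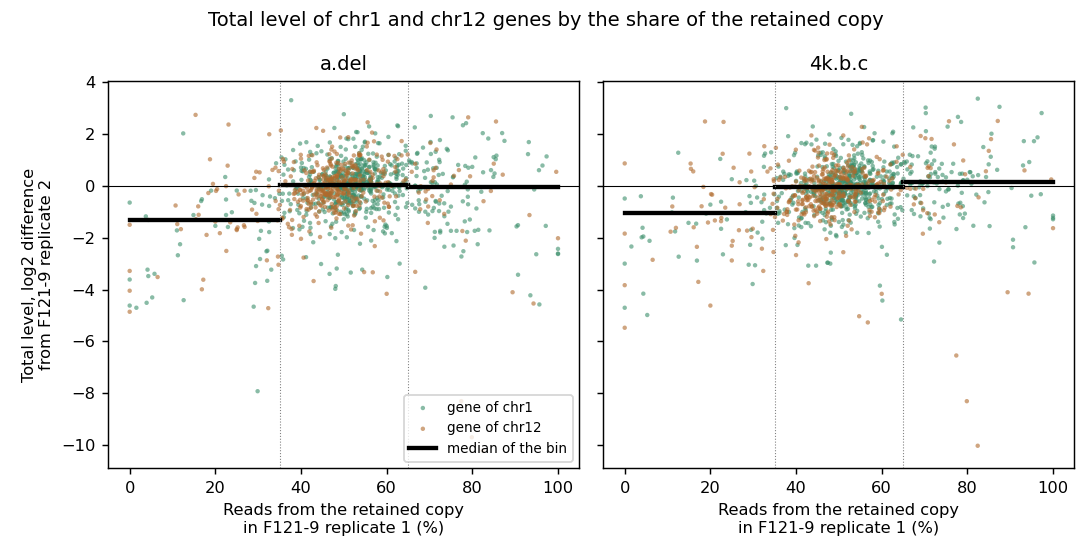
Total level as log2 difference from F121-9 replicate 2 (y axis) against the percent of reads from the retained copy in F121-9 replicate 1 (x axis), 1 point per gene of chr1 or chr12, by clone. The median of the genes under 35% lies at -1.31 in a.del and -1.06 in 4k.b.c, and that of the genes between 35% and 65% at 0.02 and -0.05.

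Genes with at least 100 reads in each F121-9 library and the lowest retained share illustrate the low end. They were Fcrla, Tunar, Ap1s3, Rgs6 and Rbm44. Here and at the high end, unlike in the groups above, the share and the difference used the same F121-9 libraries. The choice of genes and their reference level are thus not independent. Tunar, a long noncoding RNA of chr12, gave 5.96% of its F121-9 reads from the retained cast copy and measured 2.71 RPM in a.del and 4.35 RPM in 4k.b.c against 32.2 and 32.0 RPM in F121-9 (log2 -3.19, SE 0.69, adjusted p = 0.0857 in limma). Both clones lay below the 8.95 to 53.2 RPM of the 12 other libraries. Ap1s3 of chr1, a subunit of a clathrin adaptor, had a retained share of 11.1% and measured 8.34 and 13.6 RPM against 30.0 and 27.7 RPM, below the 26.9 to 40.4 RPM of the 12 others (adjusted p = 0.0857). Its retained 129 copy differed by 1.70 (adjusted p = 0.0501). Rgs6, a regulator of G-protein signalling on chr12, had 14.7% and measured 0.564 and 1.97 RPM against 12.5 and 10.5 RPM (adjusted p = 0.0782). Rbm44 of chr1, an RNA-binding protein, had 15.1% and measured 0.902 and 3.11 RPM against 17.4 and 21.2 RPM (adjusted p = 0.0595). In these 4 genes the clones did not overlap F121-9, and none passed the threshold. Fcrla is not among the 4: its reads came from cast in F121-9 and nearly all from cast in both clones too, as given below. Against the 6 other libraries of the second run, limma gave an adjusted p of 2.95e-04 for Tunar, 0.00295 for Ap1s3, 0.0177 for Rbm44 and 0.0873 for Rgs6. With the run as a covariate it was 4.04e-05, 0.161, 5.63e-04 and 0.170, so Tunar and Rbm44 passed both ways, Ap1s3 1 way and Rgs6 neither.

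At the high end were Tubb2a-ps2, 1700019D03Rik, Dner, Slco4c1 and Aox3, with retained shares of 99.8%, 95.2%, 92.3%, 91.7% and 91.6%. The RNA 1700019D03Rik measured 203 RPM in a.del and 441 RPM in 4k.b.c against 184 and 133 RPM in F121-9 (adjusted p = 0.0959). Slco4c1, an organic anion transporter, measured 86.5 and 63.9 RPM against 40.0 and 37.0 RPM (adjusted p = 0.247), above the 17.3 to 55.3 RPM of the 12 others. Dner, a transmembrane ligand of Notch, measured 10.6 and 7.14 RPM against 25.0 and 30.5 RPM (adjusted p = 0.115). Aox3, an aldehyde oxidase, measured 1.24 and 6.32 RPM against 9.19 and 8.25 RPM (adjusted p = 0.149). With the pseudogene Tubb2a-ps2 at 21.5 and 17.5 RPM against 11.3 and 14.7 RPM, 3 of these 5 lay above both F121-9 libraries and 2 below, and none passed the threshold. With the run as a covariate, Slco4c1 passed as higher (adjusted p = 0.00837) and Aox3 as lower (adjusted p = 0.0260).

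The 5 genes of chr1 and chr12 with the most F121-9 reads kept high totals. Reads give the parental origin of the RNA, and the number of chromosomes present was not measured. Esrrb of chr12, a nuclear receptor of the pluripotency network, measured 1295 RPM in a.del and 1478 RPM in 4k.b.c against 1776 and 1637 RPM in F121-9 (adjusted p = 0.317), with 0.640% and 0.623% of its reads from 129. Its cast copy rose by 0.82 (adjusted p = 0.0196). Dst, a cytoskeletal linker, measured 1505 and 1646 RPM against 1273 and 1447 RPM and Epha4, an ephrin receptor, 1400.4 and 1104 RPM against 1555 and 1193 RPM. Enah, an actin regulator, measured 1889 and 1288 RPM against 2383 and 2048 RPM and Trip12, a ubiquitin ligase, 1151 and 993 RPM against 1734 and 1451 RPM. Of these 5, only Epha4 overlapped F121-9, Dst lay above it and the other 3 below, with no adjusted p under 0.05.

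Across all autosomes 62 of 14886 genes (0.416%) passed the limma test of the total in the mean of both clones against F121-9, 14 higher (0.094%) and 48 lower (0.322%). Chr12 had 11 lower genes of 574, chr1 3 lower and 1 higher of 924, chr8 3 higher of 813, chr7 1 in each direction of 1202, and the other autosomes 9 higher and 33 lower of 11373. Of the 14 lower genes of chr1 and chr12, 7 are rows of the single stretch from Dlk1 to Dio3. Some of these lie inside others, so they are not separate results. On chr1 and chr12 13 of the 14 lower genes and the 1 higher gene lay outside all 14 other libraries. On the other autosomes 11 of 33 lower and 3 of 9 higher genes did. The 7 rows of the stretch are among the 13, and the 14 libraries include F121-9, so these shares are not compared. The count rested on single libraries: it was 4 without either F121-9 library, 6 without a.del, 11 without either abc.del library, 253 and 263 without ab.del replicate 1 or 2, and 430 and 470 without c.del replicate 1 or 2. Centred on the other autosomes it was 37 higher and 228 lower, and in DESeq2 467 higher and 660 lower. Of the 62 called genes, 54 passed with the run as a covariate, but only 21 against the 6 other libraries of the second run. Meg3, Rian, Mirg and Alk were the 4 genes that passed in every fit that left out 1 library and under every alternative run.

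Meg3, Rian and Mirg lie in 1 row on the plus strand of chr12 (mm10), at chr12:109540996-109571729, chr12:109603945-109661711 and chr12:109734981-109749457. They are long noncoding RNAs of the imprinted region between Dlk1 and Dio3, normally made from the copy inherited from the mother, and they host small nucleolar RNAs and microRNAs. Meg3 measured 0.0564 RPM in a.del and 0.311 RPM in 4k.b.c against 176 and 129.9 RPM in F121-9, where the clones had 1 and 3 reads. Rian measured 0.169 and 0.207 RPM against 468 and 320.2 RPM, with 3 and 2 reads in the clones. Mirg measured 0.113 and 0.621 RPM against 58.5 and 67.3 RPM, with 2 and 6 reads. The 12 other libraries held 93.0 to 733 RPM of Meg3, 229 to 817 RPM of Rian and 44.8 to 153 RPM of Mirg, so the near absence of all 3 was seen in these clones and in no other library.

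The ratio of F121-9 to a.del was 2809.7 (504 to 110997) for Meg3, with the exact 95% counting interval in parentheses, 2427 (830.5 to 11772) for Rian and 549 (152 to 4534) for Mirg. The ratio to 4k.b.c was 509.9 (174 to 2473) for Meg3 and 1983 (549 to 16372) for Rian, and Mirg was 101-fold lower. In limma the log2 difference was -9.22 for Meg3 (SE 0.46, adjusted p = 1.86e-05), -10.40 for Rian (SE 0.31, adjusted p = 4.43e-07) and -7.32 for Mirg (SE 0.29, adjusted p = 3.16e-06). Against the 6 other libraries of the second run the adjusted p was 1.47e-05, 2.32e-07 and 2.52e-06. The cast copy that the clones retain had given 80.3% of the F121-9 reads of Meg3, 82.2% of Rian and 78.1% of Mirg. In F121-9 the retained copy was thus the more active one, and in the clones it was close to silent. The labels do not say which copy came from the mother.

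The low levels reached from Meg3 to Mirg but not to the Dio3 end of the region. From Dlk1 to Dio3 (chr12:109452823-110281097, a stretch chosen after its values were seen) the table has 78 rows, of which 36 passed the filter. In 32 of the 36 both clones lay below both F121-9 libraries, against 23.5% of all tested genes, and in 18 below all 14 other libraries. Most of these rows had 0 reads in both clones and passed the filter only through the other libraries. Their direction was thus largely fixed, and nothing is read from these counts. All rows together had 46 reads in a.del and 48 in 4k.b.c, or 2.59 and 4.97 RPM, against 735 and 547 RPM in F121-9 and 385 to 1732 RPM in the 12 others. Dio3 and its neighbour Dio3os held 39 of the reads of a.del and 36 of those of 4k.b.c, and neither row was lower than F121-9: together they measured 2.20 and 3.73 RPM against 2.05 and 2.43 RPM. The rows without these had 7 and 12 reads, or 0.395 and 1.24 RPM, against 733 and 544 RPM. Rows can overlap and share reads. Besides Meg3, Rian and Mirg, 4 of the 36 rows passed limma: Mir540, Mir370, Mir453 and AF357359, a row for a small nucleolar RNA. Mir370 and AF357359 lie inside the row of Rian and Mir453 inside that of Mirg, so they are not independent of their hosts.

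The mature miRNAs of the 3 miRNA rows that passed limma are printed because their genes lie in the stretch where reads were nearly absent. Capitals mark the seed, bases 2 to 8 from the 5′ end. All 3 rows matched an entry of RefSeq (GRCm38.p6), and no seed is shared. The rows measured nascent RNA over the miRNA gene, not the mature miRNA.
mmu-miR-540-5p: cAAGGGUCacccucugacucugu
mmu-miR-540-3p: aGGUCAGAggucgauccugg
mmu-miR-370-5p: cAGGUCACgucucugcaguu
mmu-miR-370-3p: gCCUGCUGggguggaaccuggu
mmu-miR-453: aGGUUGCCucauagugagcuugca
Mir540, which lies outside the 3 long RNAs, had 0 reads in both clones against 66 and 22 in F121-9, at least 13.9-fold lower in a.del and at least 7.57-fold in 4k.b.c at a floor of 3 reads per library (adjusted p = 0.0364). Mir370 was at least 9.15-fold and 4.98-fold lower (adjusted p = 0.0416), and Mir453 at least 7.82-fold and 4.26-fold lower (adjusted p = 0.0445). Like Mir540, these rows had 0 reads in both clones. All 3 rows passed the filter only through the other libraries. Their direction was thus largely fixed, and nothing is read from these p-values. Mir540 did not pass against the 6 other libraries of the second run (adjusted p = 0.101), and with the run as a covariate Mir370 did not (adjusted p = 0.0635), by limma in each case.

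Of 8 listed imprinted genes of chr1 and chr12, 6 were tested, and Meg3, Rian and Mirg fell while none rose. The other 3 differed upwards and did not pass, so the list went both ways and its median of -3.50, against 0.13 over all tested genes, lies near none of its members. Protein-coding genes of the region were barely transcribed: Dlk1 and Rtl1 were below the filter, and Dio3, a deiodinase of thyroid hormone, measured 0.620 and 1.97 RPM against 0.980 and 0 RPM. The chr1 genes Zdbf2 and Gpr1 did not pass. Zdbf2 measured 483 and 496 RPM against 343 and 448 RPM (adjusted p = 0.409) and Gpr1 13.8 and 11.7 RPM against 7.33 and 7.96 RPM (adjusted p = 0.396), and in F121-9 their retained copy gave 54.3% and 66.0% of the reads.

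Other genes of chr1 and chr12 that fell had mostly been more active on the lost copy. In some the retained copy also measured lower, but none of those differences passed the threshold in limma. Retained shares and differences used the same F121-9 libraries. Iqca at chr1:90042132-90153401 had a retained share of 26.8% and measured 0 RPM in a.del and 1.66 RPM in 4k.b.c against 21.1 and 24.2 RPM in F121-9 (log2 -5.76, SE 0.63, adjusted p = 0.00765). It was at least 134-fold lower in a.del and 13.7-fold lower in 4k.b.c, which lay within the 0.778 to 28.4 RPM of the 12 others. The retained 129 copy of Iqca differed by -3.83 (limma adjusted p = 0.0523), where the median 129 gene of chr1 stood at 0.95. Gm10451 on chr12 had all of its F121-9 reads from the lost 129 copy and gave 3 and 0 reads against 134 and 59 (adjusted p = 0.00448).

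Further genes that fell are named here after their values were seen. Smoc1, a secreted matrix protein of chr12 with a retained share of 33.2%, measured 8.74 RPM in a.del and 23.8 RPM in 4k.b.c against 212 and 233 RPM in F121-9, below the 64.9 to 296 RPM of the 12 others (log2 -3.94, SE 0.48, adjusted p = 0.0128). Its retained cast copy differed by -2.39 (adjusted p = 0.0936), where the median cast gene of chr12 stood at 0.97. Igfbp2, a binding protein of insulin-like growth factors on chr1, measured 135 and 156 RPM against 548 and 545 RPM, below the 263 to 622 RPM of the 12 others (log2 -1.92, SE 0.23, adjusted p = 0.0128). Its retained share was 48.0% and its 129 copy differed by -0.86 (adjusted p = 0.0879), where the median 129 gene of chr1 stood at 0.95. Six4, a homeobox factor of chr12 with a retained share of 26.5%, measured 19.7 and 13.7 RPM against 45.4 and 60.0 RPM (adjusted p = 0.0442), and its cast copy differed by 0.24. Mcmdc2 of chr1, a gene of meiotic recombination with a retained share of 32.5%, measured 1.69 and 4.87 RPM against 16.9 and 23.9 RPM (adjusted p = 0.0173). Its 129 copy differed by -1.15 (limma adjusted p = 0.236). Dnah11 of chr12, a dynein of motile cilia with 19.3%, measured 0.226 and 0.207 RPM against 5.97 and 3.90 RPM (adjusted p = 0.0173). Its cast copy differed by -1.79 (limma adjusted p = 0.175). None of Iqca, Gm10451 and these 5 genes passed in every fit that left out 1 library. Against the 6 other libraries of the second run, Iqca (adjusted p = 0.0546), Six4 (0.345) and Dnah11 (0.162) did not pass, while Gm10451, Smoc1, Igfbp2 and Mcmdc2 did.

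Wdr64 at chr1:175698593-175815733 was the 1 gene of chr1 that rose, and no gene of chr12 did. It measured 23.5 RPM in a.del and 59.3 RPM in 4k.b.c against 6.91 and 5.67 RPM in F121-9 (log2 2.56, SE 0.42, adjusted p = 0.0441), above the 3.61 to 10.4 RPM of the 12 others, and its retained share was 77.8%. It did not pass without either F121-9 library. Next in the ranking were Ivns1abp, a regulator of the actin cytoskeleton, at 197 and 193 RPM against 85.4 and 98.2 RPM (adjusted p = 0.0749), and the RNA B930059L03Rik of chr12 at 1.80 and 2.59 RPM against 0 and 0.0737 RPM (adjusted p = 0.0674). Against the 6 other libraries of the second run the difference of B930059L03Rik was -0.06 in place of 4.10.

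Of 17 listed pluripotency and signalling genes of chr1 and chr12, 14 were tested and limma called 0, with 3 at an unadjusted p under 0.05, while edgeR called 0 and DESeq2 called 2. Over all tested genes these shares were 21.4% at an unadjusted p under 0.05, 0.645% in edgeR and 7.57% in DESeq2. The list's median was -0.05, against -0.06 over chr1 and chr12. Tfcp2l1 of chr1, a factor of naive pluripotency, measured 1052 and 1123 RPM against 1183 and 1049 RPM and overlapped F121-9. Prdm14 of chr1, a repressor of lineage genes with a retained share of 18.0%, measured 68.9 and 37.6 RPM against 79.1 and 103 RPM (log2 -0.83, adjusted p = 0.215). Mycn of chr12, a proto-oncogene, measured 92.1 and 67.2 RPM against 25.2 and 22.1 RPM (adjusted p = 0.180), and its cast copy rose by 2.55 (adjusted p = 0.0228). The total difference of Mycn was 1.73, and -0.07 with the run as a covariate. The clones lay on opposite sides of F121-9 at Lefty1, an inhibitor of Nodal, with 33.1 and 1.76 RPM against 3.36 and 4.79 RPM, and at Lefty2, with 93.9 and 3.73 RPM against 22.2 and 55.1 RPM. The differences at both Lefty genes changed sign when 1 clone was left out.

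A few genes kept reads of the copy that was otherwise nearly absent. Of 802 genes of chr1 and chr12 with at least 100 reads in each clone, 203 in a.del and 325 in 4k.b.c had 0 reads of it, the median share was 0.142% and 0.0965%, and 13 genes in each clone had more than 5%, 11 of them in both. Kcnq5, a potassium channel of chr1, had 52.7% and 51.1% of its reads from cast. Pld5 had 37.4% and 30.7%, Traf5, an adaptor of tumour necrosis factor receptors, 30.9% and 32.1%, 6430706D22Rik 11.6% and 30.3%, and Rgl1 10.2% and 20.4%. Fcrla of chr1 had 100.0% and 97.8% from cast and 0% from 129 in either F121-9 library. Whether reads were assigned to the right copy at these genes was not tested.

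On chr8 and chr7 few genes passed singly although the chromosomes as a whole stood higher. Gm32856 at chr8:129263630-129286570 measured 40.4 RPM in a.del and 43.0 RPM in 4k.b.c against 5.93 and 4.20 RPM in F121-9, above the 2.63 to 17.5 RPM of the 12 others (log2 3.04, SE 0.46, adjusted p = 0.0336). Zmat4 of chr8, a zinc finger gene, measured 52.3 and 26.4 RPM against 8.03 and 5.97 RPM (log2 2.41, SE 0.38, adjusted p = 0.0364), with 4k.b.c inside the 4.38 to 31.1 RPM of the 12 others. Izumo2 of chr7, a relative of a sperm fusion protein, had 20 and 33 reads against 0 in both F121-9 libraries, at least 5.10-fold and 15.5-fold higher (adjusted p = 0.0236). Nlrp4c of chr7, an oocyte gene of the NLR family, fell, with 0.226 and 1.04 RPM against 13.5 and 11.9 RPM (adjusted p = 0.0354). The clones lay inside the 0.584 to 4.32 RPM of the 12 others for Izumo2 and inside their 0 to 64.4 RPM for Nlrp4c. None of these 4 passed against the 6 other libraries of the second run (adjusted p = 0.136 for Gm32856, 0.366 for Zmat4, 0.996 for Izumo2 and 0.846 for Nlrp4c), and Nlrp4c did not with the run as a covariate (adjusted p = 0.0532). Next among the lower genes, A330076H08Rik measured 0 and 0 RPM against 2.19 and 2.06 RPM (adjusted p = 0.0595) and Dkk3, of the Dickkopf family, 0.958 and 1.24 RPM against 7.79 and 9.50 RPM (adjusted p = 0.0616).

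Of 14 listed pluripotency and signalling genes of chr7 and chr8, 10 were tested and limma called 0, with 6 at an unadjusted p under 0.05, while edgeR called 0 and DESeq2 called 2. On chr8 and chr7 together 32.2% of genes had an unadjusted p under 0.05, and the shares over all genes were the 21.4%, 0.645% and 7.57% given above. The list's median was 1.18, against 0.57 over chr8 and chr7 and 0.13 over all genes. In 7 of the 10 both clones lay above both F121-9 libraries, against 52.5% of the genes of chr8 and chr7 and 35.7% of all tested genes. Cdh1 of chr8, the epithelial cadherin, measured 359 and 443 RPM against 280.4 and 268 RPM, and 35.6% and 33.0% of its reads came from 129, against 48.9% and 48.4% in F121-9. Zfp42 of chr8, a pluripotency marker, measured 844 and 682 RPM against 731 and 604 RPM and overlapped F121-9, with 129 shares of 32.9% and 32.6% against 53.9% and 54.1%. Trim28 of chr7, a corepressor of retroelements, measured 193 and 261 RPM against 105 and 91.6 RPM (adjusted p = 0.162), with 129 shares of 49.1% in a.del and 34.7% in 4k.b.c. Fgf4 of chr7, a growth factor of the early embryo, measured 15.4 and 11.6 RPM against 4.53 and 5.82 RPM (adjusted p = 0.194), and Mt1 of chr8, a metallothionein, 102 and 44.3 RPM against 16.6 and 11.9 RPM (adjusted p = 0.149).

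Of 11 listed imprinted genes of chr7, 6 were tested and limma called 0, with 2 at an unadjusted p under 0.05, while edgeR called 0 and DESeq2 called 2. Of all chr7 genes 27.4% had an unadjusted p under 0.05, and over all autosomes DESeq2 called 7.57%. The list's median was 0.73, against 0.48 over chr7. Kcnq1ot1, the noncoding RNA of the Kcnq1 domain, measured 813 and 1400.3 RPM against 479 and 489 RPM (adjusted p = 0.0857), with 129 shares of 53.8% and 36.4% against 54.3% and 53.1%. It is antisense to Kcnq1, and whether the authors' counting used strand is not given in the sources used here, so reads of the pair may be mixed. Peg3, a zinc finger gene, measured 54.1 and 63.4 RPM against 21.0 and 26.4 RPM (adjusted p = 0.106), with 40.8% and 23.9% against 47.5% and 35.8%. Snrpn, a splicing protein, measured 208 and 321 RPM against 210.0 and 149 RPM, and Ube3a, a ubiquitin ligase, 395 and 509 RPM against 419 and 349.7 RPM. In F121-9 Kcnq1ot1, Peg3, Snrpn and Ube3a were all read from both copies.

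On the 15 other autosomes 33 genes fell and 9 rose. Both copies were above the filter in 31 of the lower and 9 of the higher genes, and in 25 and 8 of them both copies passed the test. The genes were chosen by the sum of the copies, which largely fixes the direction of each, so nothing is read from this. Alk at chr17:71868988-72604307, a receptor tyrosine kinase named after its values were seen, measured 11.8 RPM in a.del and 9.63 RPM in 4k.b.c against 104 and 148 RPM in F121-9, below the 37.6 to 201 RPM of the 12 others (log2 -3.52, SE 0.28, adjusted p = 8.80e-04). Its 129 copy differed by -3.23 and its cast copy by -3.59.

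The 5 genes that fell most on these autosomes were Gm10754, 6530403H02Rik, Gm12724, Gm36229 and Spink13. Gm10754 measured 0.113 and 0.311 RPM against 12.6 and 20.7 RPM, and the 12 others spanned 0 to 142 RPM. Gm36229 measured 0.507 and 3.11 RPM against 32.4 and 39.5 RPM, and the 12 others spanned 0 to 49.1 RPM. Of the 5, 6530403H02Rik alone lay below all 12 others in both clones, at 0.169 and 0.311 RPM against 10.2 and 9.87 RPM against their 0.454 to 28.3 RPM. None of the 5 passed against the 6 other libraries of the second run, with an adjusted p of 0.690 for Gm10754, 0.0889 for 6530403H02Rik, 0.544 for Gm12724, 0.829 for Gm36229 and 0.617 for Spink13. Several of the largest differences from F121-9 thus also occurred in other edited lines.

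The 5 that rose most were Ttn, Mest, Crmp1, Lgals3 and Mir124a-1hg. Ttn, the giant protein of the sarcomere, measured 99.6 RPM in a.del and 139 RPM in 4k.b.c against 9.10 and 8.84 RPM in F121-9, above the 5.07 to 42.2 RPM of the 12 others (log2 3.70, SE 0.53, adjusted p = 0.0254). Mest of chr6, an imprinted gene normally read from the paternal copy, measured 119.5 and 70.0 RPM against 13.5 and 11.3 RPM, above the 12.1 to 46.9 RPM of the 12 others (log2 2.87, SE 0.45, adjusted p = 0.0364), and its 129 copy differed by 3.01 and its cast copy by 2.77. Crmp1, a phosphoprotein of growing axons, measured 76.2 and 31.7 RPM against 7.23 and 6.11 RPM, and Lgals3, a galectin, 19.6 and 6.73 RPM against 1.96 and 1.25 RPM. Mir124a-1hg, the host gene of a neural microRNA, measured 56.7 and 17.7 RPM against 8.26 and 6.11 RPM. In Crmp1, Lgals3 and Mir124a-1hg, a.del lay above all 12 others and 4k.b.c among them, and a.del also had the higher summed neural markers, 23.4 against 4.97 RPM, both within the 1.62 to 23.9 RPM of the 12 others. Their part in the result was not tested. Ttn and Mest passed against the 6 other libraries of the second run (adjusted p = 0.0126 and 0.0401) and Crmp1, Lgals3 and Mir124a-1hg did not (0.119, 0.679 and 0.121). With the run as a covariate Lgals3 and Mir124a-1hg did not pass either (0.0652 and 0.0594).

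**Figure D5:**
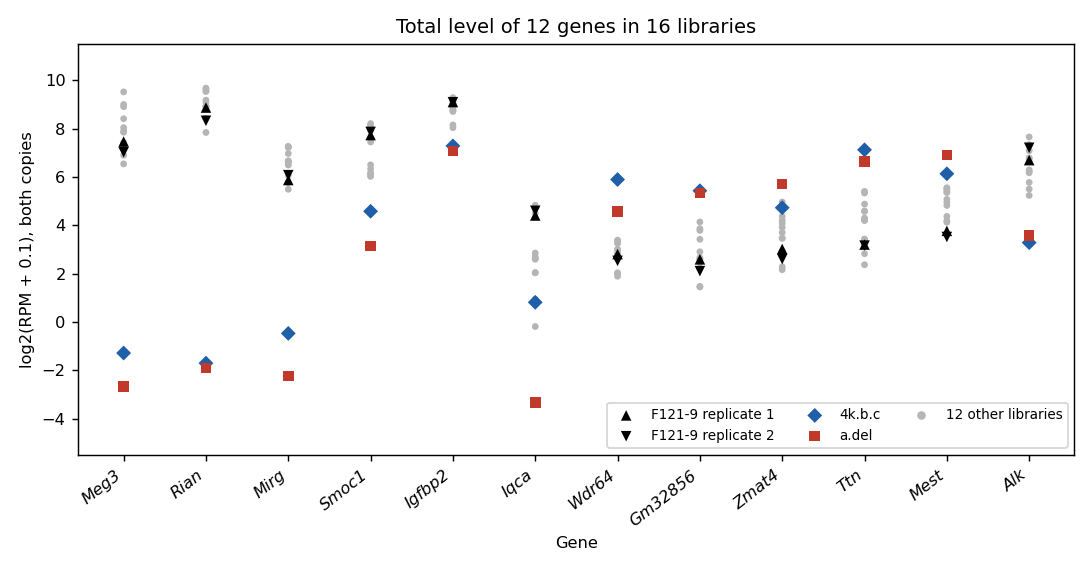
Total level as log2(RPM + 0.1) (y axis) of 12 genes (x axis) in all 16 libraries, 1 point per library. Meg3, Rian and Mirg are at 0.621 RPM or less in both clones and at 44.8 RPM or more in every other library, and Alk, Igfbp2 and Smoc1 are lower in both clones than in all others.

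Dppa2, Dppa4 and Morc1 of chr16 were listed as genes of the locus that the series is known to have edited. In total level limma called 0 of the 3, with 0 at an unadjusted p under 0.05, and edgeR and DESeq2 called 0. By copy, Dppa2, a factor of early embryonic genes, had 100.0% and 99.3% of its reads from 129 in a.del and 4k.b.c against 61.7% and 65.3% in F121-9, and its cast copy fell by 6.05 (adjusted p = 2.58e-06), while its total was 38.7 and 59.7 RPM against 44.6 and 37.6 RPM. Dppa4 measured 44.1 and 48.5 RPM against 39.0 and 36.4 RPM. Morc1, a repressor of transposons in germ cells, measured 1208 and 442 RPM against 625 and 671 RPM, with 129 shares of 44.7% and 13.3% against 48.1% and 52.7%. In the direct test of a.del minus 4k.b.c Morc1 did not pass, with 1 library per clone.

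Taken singly, a.del had 61 calls against F121-9 (0.41% of all genes), 17 higher (0.114%) and 44 lower (0.296%), and 20 higher and 188 lower after centring. The clone 4k.b.c had 6 (0.0403%), which were Meg3, Rian, Mirg, Gm10451, Alk and Sohlh2, all lower, and 2 higher and 13 lower after centring. After centring, the 129 copy had 219 higher and 707 lower genes in place of 317 and 578, and the cast copy 442 and 993 in place of 650 and 886. Both clones were compared with the same F121-9 libraries, so the overlap of their calls is not given. Set directly against each other, the clones differed at 1 gene (0.00672%), Ebf1 of chr11, a transcription factor of B cell development, which measured 228 and 16.6 RPM against 22.4 and 36.8 RPM (log2 3.77 for a.del minus 4k.b.c, SE 0.39, limma adjusted p = 0.0409). That call was lost without either F121-9 library, without either abc.del library and in edgeR, each of which left 0.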

How the data were processed

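Nascent RNA of 16 libraries was analysed from a single table with 32 value columns, a 129 and a cast column per library. The deposited table is named as RPKM, but each column sums to 1000000 and its values are whole multiples of 1 step for every gene, whatever its length, so the deposited values were treated as CPM. The column names give a mapping quality of 10 and a split by sequence variant, per the file headers. Bowtie2, bedtools and mm10 are named per the submitters' processing notes without a version. Scaling each copy separately distorts libraries in which a parental copy of whole chromosomes gave almost no reads. Whole reads were therefore recovered by dividing each column by its smallest value (100% of values whole within 0.01). They were expressed per 1000000 autosomal allele-assigned reads (RPM), with the widest row per symbol.

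Totals and copies were tested as log2(RPM + 0.1) with limma 3.58.1 in R 4.3.3 (moderated with a trend, two-sided, threshold of 0.05 on Benjamini-Hochberg adjusted p) over genes with a mean of at least 0.2 RPM. All 16 libraries entered as 12 group means, and the spread came from the 4 groups with 2 libraries, so the single libraries of a.del and 4k.b.c were assumed to vary like those. In abc.del, ab.del and c.del the 2 libraries carry different suffixes in their labels, and those of ab.del and c.del fall in different runs. The fit was also run on simulated data for the mean of both clones (14886 genes). There it found 17.9% of genes given a log2 change of 1, 85.1% at 2 and 97.0% at 4. It made 14 calls among unchanged genes. The simulation gave every gene the same dispersion of 0.05, which was not matched to the spread of the measured libraries. No detection rate for the measured libraries is therefore read from these shares, and whether they hold there was not tested. Alternatives were edgeR 4.0.16 and DESeq2 1.42.0 on the recovered reads, other filters and pseudocounts, the deposited CPM, centring, the run of sample numbers as a covariate, 6 other libraries as the reference, and leaving out libraries. The text names, for each chromosome set, the genes with the largest differences past the threshold or next to it in both directions, those with the most reads and the lowest and highest retained shares, and listed genes; others are marked as named after their values were seen. The members and lists were chosen with earlier results of these data known.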

Additional observations from a re-analysis of the deposited data

Results flagged for a closer look

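Ebf1, a transcription factor of B cell development on chr11, was the 1 gene that differed between the clones in the direct test of a.del minus 4k.b.c, where 0.00672% of genes passed. It measured 228 RPM in a.del and 16.6 RPM in 4k.b.c, against 22.4 and 36.8 RPM in F121-9 and 30.9 to 168 RPM in the 12 other libraries. The difference was 3.77 on the log2 scale (SE 0.39, limma adjusted p = 0.0409), with 1 library per clone. It did not pass without either F121-9 library or either abc.del library.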

How the results depend on the processing

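No paired analysis was possible because a.del and 4k.b.c have 1 library each, so they share 1 replicate number with F121-9 and pairing needs 2. Of the values of 60 single genes under the alternatives, 1128 kept their direction and side of the threshold, 39 passed where the reported value did not, 120 no longer passed and 27 changed sign, all of genes that did not pass as reported. With the run as a covariate the sign changed for Lefty1 (-0.37), Nr5a2 (-0.10), Mycn (-0.073), Yy1 (-0.18), Dicer1 (0.17) and Dppa2 (-0.82). Against the 6 other second-run libraries it changed for Lefty1 (-0.14), Nr5a2 (-0.099), Yy1 (-0.12), Zfp36l1 (-0.062), Dnmt3a (0.091) and B930059L03Rik (-0.058), and after centring for Yy1 (-0.062), Zfp42 (-0.069), Ube3a (-0.033), Dppa2 (-0.029) and Morc1 (-0.087). Without single libraries the range crossed 0 for Lefty1 (-1.14 to 3.01), Lefty2 (-3.20 to 1.42), Morc1 (-0.55 to 0.90), Dicer1 (-0.74 to 0.19), Dnmt3a (-0.64 to 0.22), Nr5a2 (-0.14 to 0.73), Dppa2 (-0.080 to 0.54), Usp29 (-0.024 to 0.77) and Tfcp2l1 (-0.12 to 0.050). The 62 calls in the mean of both clones became 235 with no filter (139 higher, 96 lower), 39 with the deposited CPM, 265 centred, 239 with the run as a covariate, 35 without trend, 100 against the 6 other second-run libraries (37 higher, 63 lower), 96 in edgeR, 1127 in DESeq2, and 4 to 470 without single libraries. The 61 of a.del became 116 with no filter, 208 centred, 381 with the run, 26 without trend, and 4 to 206 without single libraries. The 6 of 4k.b.c became 132, 15 and 48 in the first 3 of these, 19 against the 6 libraries, and 3 to 9 without single libraries. The 1 between the clones became 124 with no filter, 87 with the run, 0 with a pseudocount of 0.01, a minimum of 1, no trend or edgeR, and 0 to 1 without single libraries. The 895 calls of the 129 copy became 577 without trend and 417 to 1438 without single libraries, and the 1536 of the cast copy 999 and 673 to 2303. Median totals in the mean of both clones became, with no filter, 0.53 on chr8 (0.69 as reported), 0.24 on chr7 (0.48), 0.35 on both (0.57) and 0.00 on other autosomes (0.10). With the deposited CPM they were 0.76, 0.53, 0.64 and 0.15, and 0.026 on chr1 and chr12 (-0.024). With a pseudocount of 1 they were 0.56, 0.37, 0.44 and 0.065, and against the 6 libraries 0.53, 0.30, 0.38 and -0.0062, the last reversed. Against F121-9 replicate 2 alone, chr8 stood at 0.65, both at 0.54, other autosomes at 0.067 and chr1 with chr12 at -0.065, and against replicate 1 alone chr7 at 0.53. The 129 share as a median over genes was 100.0% on chr1 in each clone, 0.180% and 0.0666% on chr12, 35% and 35.2% on chr8, and 52.9% and 35.9% on chr7. From the deposited CPM it was 99.7% on chr1 and 0.403% on chr12 in a.del, 33.1% and 34.7% on chr8, and 50.5% and 35.7% on chr7. With the F121-9 replicates exchanged, genes of low retained share stood at -0.69 and those of high share at 0.33. With limits of 25% and 75% they stood at -1.41 and 0.032. The cause of these shifts was not tested. Floors of 0.169 and 0.311 RPM in a.del and 4k.b.c limit the lowest values.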
